A study of Mus musculus with 6 samples.

Results

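Immunity-related GTPases were followed in whole brain tissue after systemic LPS challenge or vehicle injection. The 8 genes described were Irgm1, Irgm2, Igtp, Iigp1, Tgtp1, Tgtp2 and Ifi47, together with Gvin1, a very large interferon-inducible GTPase. They were found by name in the platform annotation of the array, and 9 of 35556 transcript clusters, which are the probe sets that the array assigns to transcribed loci, named at least 1 of them. For comparison, 19938 genes were named alone by a cluster in all. Irgm1 and Iigp1 each had a cluster of their own. Irgm2 shared a cluster with Igtp, Tgtp1 shared both of its clusters with Tgtp2, and Ifi47 shared its cluster with Olfr56, an olfactory receptor gene. Gvin1 was named by 3 clusters, always with its close relative Gm4070 and in 2 of them also with Gm8989, Gm8979 and Gm1966. A shared cluster gives 1 value that cannot be divided between its genes. All mice were male C57BL/6 mice with no genetic modification named in the labels, aged 7 to 8 weeks and weighing 20 to 25 g. The treated group of 3 mice received 4 mg/kg LPS from Escherichia coli serotype 055:B5 in a single i.p. injection, and the control group of 3 mice received the vehicle, PBS. Whole brains were taken 48 hours later, and the RNA of each mouse was hybridized to 1 Affymetrix Mouse Gene 1.0 ST array. The study perfused mice treated in this way with PBS after death, so that much of the blood was washed from the brain before RNA was isolated.

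Immunity-related GTPases are among the most strongly interferon-induced proteins of mouse cells. Effector members gather on the vacuoles in which intracellular parasites and bacteria live and help to break them open, whereas regulator members sit on the membranes of the host cell and hold the effectors inactive there. The family is large in mice and small in humans, and transcription of its genes follows the gamma-activated site and the interferon-stimulated response element, which are the DNA motifs read by the transcription factors downstream of interferon receptors.

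Expression of 6 of the 9 member clusters was higher in LPS-treated mice than in controls, 3 missed the threshold and none was lower, also at an unadjusted p under 0.05. The test was limma with Benjamini-Hochberg adjustment over every cluster, at an adjusted p under 0.05, and 0.652% of all 35556 clusters were called higher by it. The clusters called higher named Irgm1, Irgm2 with Igtp, Tgtp1 with Tgtp2 (both of their clusters), Iigp1, and the group of 5 genes around Gvin1 (1 of its 2 clusters). The differences between the groups ran from 0.15 to 1.92 on the log2 scale with a median of 1.06, against a median of -0.000925 over all clusters. All 3 LPS arrays lay above all 3 PBS arrays in 8 of the 9 member clusters, as they did in 9.73% of all clusters. The methods' t-test, which estimates the spread of each cluster from its own 6 arrays alone, called 0 of the 9 after the same adjustment (smallest adjusted p = 0.0672) and 4 clusters higher on the whole array. At an unadjusted p under 0.05, both tests counted 8 of the 9 as higher. By limma, 2733 of all 35556 clusters were higher at that level. The share of all clusters by the other test was not taken, so its count has no background.

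**Figure D1:**
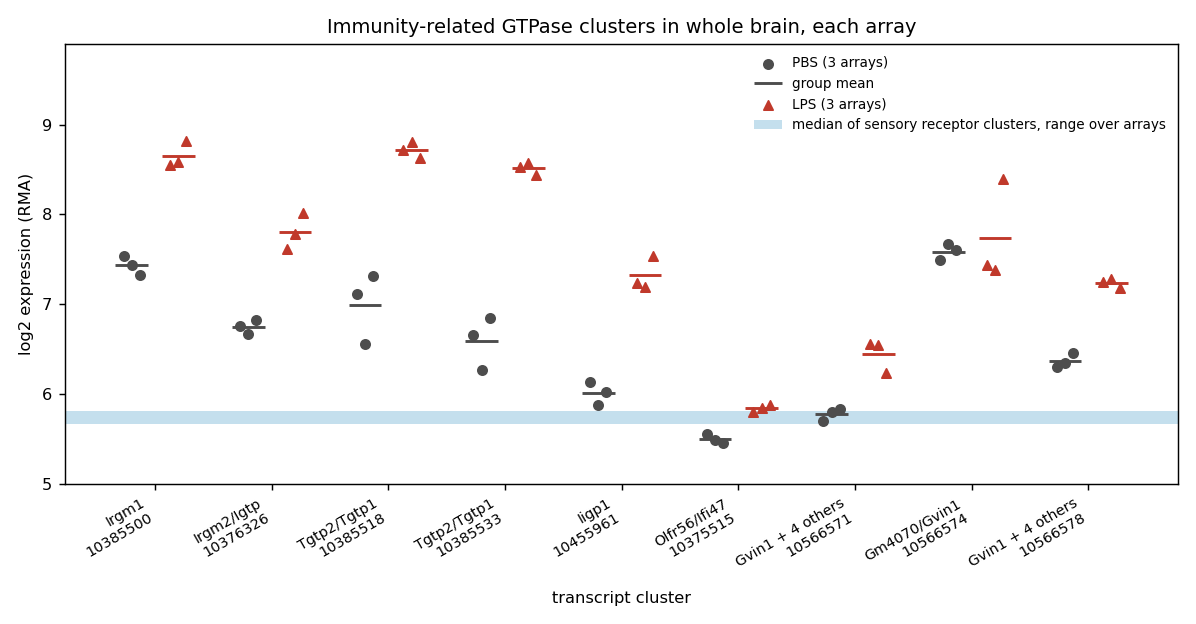
Log2 expression of the 9 member clusters (horizontal axis) on each of the 6 arrays, with PBS arrays as grey circles, LPS arrays as red triangles and group means as bars; the blue band spans the array medians of the sensory receptor clusters, from 5.67 to 5.81. The groups overlap only in the cluster of Gm4070 and Gvin1 (10566574), and the Ifi47 cluster lies at the band.

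On this array 35556 clusters were measured per mouse, and the precision of each value is limited by the number of arrays. The defining markers of neurons were well above background in both groups, for example Snap25 with a mean log2 expression of 13.53 in controls, as a whole brain would have. The reference gene Tbp differed by -0.00413 (log2, limma adjusted p = 0.991). A principal component with 54.5% of the variance set LPS replicates 1 and 2 against the remaining 4 arrays, and their array medians were 7.09 and 7.11 against 6.96 to 6.98. With both of them left out, and the remaining LPS array assumed to vary like the controls, 3 of the 9 member clusters were called higher. As a background level, 1210 clusters of olfactory and vomeronasal receptor genes, which the brain outside the nose would hardly use, had array medians of 5.67 to 5.81.

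The regulator Irgm1 was upregulated. Its log2 expression was 7.54, 7.44 and 7.32 in the 3 vehicle-treated controls and 8.55, 8.58 and 8.82 in the 3 LPS-treated mice (cluster 10385500). The lowest LPS array lay 1.01 above the highest control, so the groups were far apart. Controls averaged 7.43 ± 0.11 (SD, n = 3) and LPS-treated mice 8.65 ± 0.15 (SD, n = 3), and the difference of 1.22 (SE 0.10, 95% interval 0.97 to 1.47) corresponds to a 2.33-fold change (limma adjusted p = 0.00529). Irgm1 was called higher whichever single array was left out, with adjusted p values from 0.00433 to 0.0499.

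Irgm2 and Igtp, the other regulators of the family, were read together by 1 cluster (10376326). Its log2 expression was 6.76, 6.67 and 6.82 in controls and 7.62, 7.78 and 8.02 in LPS-treated mice. The groups did not overlap, and the spread was wider among LPS-treated mice. The difference was 1.06 (SE 0.12, 95% interval 0.79 to 1.34), a 2.09-fold change (limma adjusted p = 0.0143). The call was lost with 4 of the 6 arrays left out in turn, since the adjusted p was 0.0874, 0.0950 and 0.0746 without PBS replicates 1, 2 and 3 in turn and 0.0648 without LPS replicate 2. The size of the difference moved little in these fits, from 0.95 to 1.15 over the 6 arrays left out in turn.

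Tgtp1 and Tgtp2, which encode nearly identical effector GTPases, showed the largest changes among the members. In the first of their clusters (10385533) log2 expression was 6.66, 6.27 and 6.84 in controls and 8.53, 8.57 and 8.44 in LPS-treated mice. Controls were spread widely, with PBS replicate 2 the lowest, whereas the LPS arrays lay close together. The difference of 1.92 (SE 0.15, 95% interval 1.57 to 2.27) is a 3.79-fold change (limma adjusted p = 0.00378), and it ranked as number 13 among the differences of all 35556 clusters. It was called with every single array left out, at adjusted p values up to 0.0304, and had an adjusted p of 0.0870 without LPS replicates 1 and 2. In the other cluster (10385518) log2 expression was 7.11, 6.55 and 7.31 in controls and 8.72, 8.81 and 8.63 in LPS-treated mice. Here too PBS replicate 2 was the lowest array and the groups were apart. The difference was 1.73 (95% interval 1.28 to 2.19), or 3.32-fold (limma adjusted p = 0.0148), and the call was lost without PBS replicate 1 (adjusted p = 0.0751), LPS replicate 1 or LPS replicate 2 (0.0711 for each) and without both of these LPS arrays (0.182).

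The promoters of the members were searched for the motifs through which interferons act. Windows from RefSeq were searched for 6 of the 8 members. The 150 bases before the annotated start of each gene are shown 5′ to 3′ on the strand of the gene (build GRCm38.p6), with matches to either motif in capitals. GAAANNGAA, a core of the interferon-stimulated response element, was searched on both strands, and TTCNNNGAA, the gamma-activated site, is its own reverse complement. All 6 member windows are shown so that their letters can be compared, and Gm12185, a family gene that is no member, is set beside them for its likeness to Tgtp2.
Irgm1: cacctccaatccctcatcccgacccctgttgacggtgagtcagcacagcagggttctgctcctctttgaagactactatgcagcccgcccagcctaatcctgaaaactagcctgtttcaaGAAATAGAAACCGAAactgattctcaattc
Irgm2: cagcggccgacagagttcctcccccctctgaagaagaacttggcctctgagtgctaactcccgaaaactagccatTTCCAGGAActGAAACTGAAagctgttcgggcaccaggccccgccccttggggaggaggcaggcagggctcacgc
Igtp: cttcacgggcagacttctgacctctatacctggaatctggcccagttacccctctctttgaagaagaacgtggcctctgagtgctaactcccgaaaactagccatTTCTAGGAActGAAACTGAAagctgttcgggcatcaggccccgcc
Tgtp1: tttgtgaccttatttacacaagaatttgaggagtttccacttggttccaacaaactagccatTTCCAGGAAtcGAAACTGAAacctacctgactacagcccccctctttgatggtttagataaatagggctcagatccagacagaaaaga
Tgtp2: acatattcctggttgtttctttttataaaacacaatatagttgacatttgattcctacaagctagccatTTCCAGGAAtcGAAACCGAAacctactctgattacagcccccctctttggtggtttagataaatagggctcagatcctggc
Ifi47: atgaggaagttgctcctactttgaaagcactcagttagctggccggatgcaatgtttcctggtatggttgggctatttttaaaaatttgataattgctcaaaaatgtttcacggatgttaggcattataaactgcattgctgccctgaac
Gm12185: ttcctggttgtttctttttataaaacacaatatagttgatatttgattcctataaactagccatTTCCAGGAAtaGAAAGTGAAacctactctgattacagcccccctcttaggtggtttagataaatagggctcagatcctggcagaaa
These windows are chr11:48871421-48871570 on the minus strand for Irgm1, chr11:58214827-58214976 on the plus strand for Irgm2, chr11:58199406-58199555 (plus) for Igtp, chr11:48992247-48992396 (minus) for Tgtp1, chr11:49064213-49064362 (minus) for Tgtp2, chr11:49076437-49076586 (plus) for Ifi47 and chr11:48927183-48927332 (minus) for Gm12185.

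GAAANNGAA was found in 5 of the 6 member promoters and TTCNNNGAA in 4, and Irgm2, Igtp, Tgtp1 and Tgtp2 held both. In all 4 of these, TTCNNNGAA lay farther from the start and ended 2 bases before GAAANNGAA, and the matches of the 2 motifs did not overlap. Irgm1 held 2 overlapping matches of GAAANNGAA and none of TTCNNNGAA, and the Ifi47 window held neither motif. Among 32851 promoter windows of the same length, 3.95% held GAAANNGAA, 4.09% held TTCNNNGAA and 0.277% held both. The windows of Irgm2 and Igtp had 74.0% of their 150 bases identical when aligned, and those of Tgtp1 and Tgtp2 78.0%. The other pairs of member windows, those with Ifi47 included, had 54.7% to 64.7%. The Gm12185 window was 92.0% identical to that of Tgtp2 and held both motifs at the same distance of 2 bases. No window was searched for the members Iigp1 and Gvin1 or for the family gene Gm4951, so their motifs are not known here. Chromosome 18, where Iigp1 and Gm4951 lie, was left out of the search of family windows, and the share over all windows had no such limit. Among the other family genes that were searched, the Gm12250 window held 2 matches of GAAANNGAA and 1 of TTCNNNGAA. That of Gm12185 held 1 of each, and the clusters of both missed the threshold. The windows of 9930111J21Rik1, 9930111J21Rik2 and Gm1966 held neither motif, and clusters that name these genes were called higher. Of the shared clusters of the first 2 of these genes, 1 was called (10385513) and the other was not (10385526). The Irgq window also held neither motif, and its cluster was not called. Gm5431, whose window held neither, had no cluster. A match is a description of the letters only, and a window without a match says nothing of the factors that bind elsewhere.

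Iigp1, an effector that binds the vacuole membrane of Toxoplasma gondii, was upregulated. Its log2 expression was 6.13, 5.87 and 6.02 in controls and 7.24, 7.19 and 7.54 in LPS-treated mice (cluster 10455961). All 3 control values lay between the median and the 95th percentile of the sensory receptor clusters, and all 3 LPS values lay above that percentile. The difference was 1.32 (SE 0.12, 95% interval 1.03 to 1.61), or 2.49-fold (limma adjusted p = 0.00714). It was not called without PBS replicate 2 (adjusted p = 0.0561) or PBS replicate 3 (0.0553), while the difference itself stayed between 1.21 and 1.38 with each array left out.

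Ifi47, the remaining effector, could be followed only in the cluster it shares with the olfactory receptor Olfr56 (10375515). Log2 expression was 5.55, 5.48 and 5.45 in controls and 5.80, 5.84 and 5.88 in LPS-treated mice. The groups did not overlap, but all 3 controls were at or below the receptor median of their array. The difference of 0.35 (95% interval 0.17 to 0.52), or 1.27-fold, did not pass the test (limma adjusted p = 0.130). Values this close to background and shared with another gene do not say how far Ifi47 itself changed.

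Gvin1 was measured by 3 clusters that did not behave alike. In the cluster that passed the test (10566578), log2 expression of the 5 genes together was 6.30, 6.34 and 6.45 in controls and 7.25, 7.28 and 7.18 in LPS-treated mice. Both groups were tight, and the difference of 0.88 (95% interval 0.69 to 1.06) is a 1.83-fold change (limma adjusted p = 0.00635). The call was lost without PBS replicate 1 (adjusted p = 0.0542), PBS replicate 2 (0.0566) or both LPS replicates 1 and 2 (0.105). The second cluster of the same 5 genes (10566571) read 5.70, 5.80 and 5.83 in controls and 6.56, 6.54 and 6.23 in LPS-treated mice. LPS replicate 3 was the lowest of its group, although still above every control. The difference was 0.67 (95% interval 0.41 to 0.93, limma adjusted p = 0.0659), and without LPS replicate 3 it was 0.78 (adjusted p = 0.00691). In that fit 2640 clusters of the whole array were called higher, against 232 with all arrays, so passing there is not particular to this cluster. The cluster of Gm4070 and Gvin1 alone (10566574) read 7.49, 7.67 and 7.60 in controls and 7.44, 7.38 and 8.39 in LPS-treated mice. LPS replicate 3 lay above every control here and the other 2 LPS arrays below, so the groups overlapped. Its difference of 0.15 (95% interval -0.48 to 0.77, limma adjusted p = 0.828) turned to -0.18 without LPS replicate 3 (adjusted p = 0.248). Gvin1, Gm4070 and their relatives are near-identical copies, so the share of each gene in these 3 values cannot be told apart.

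**Figure D2:**
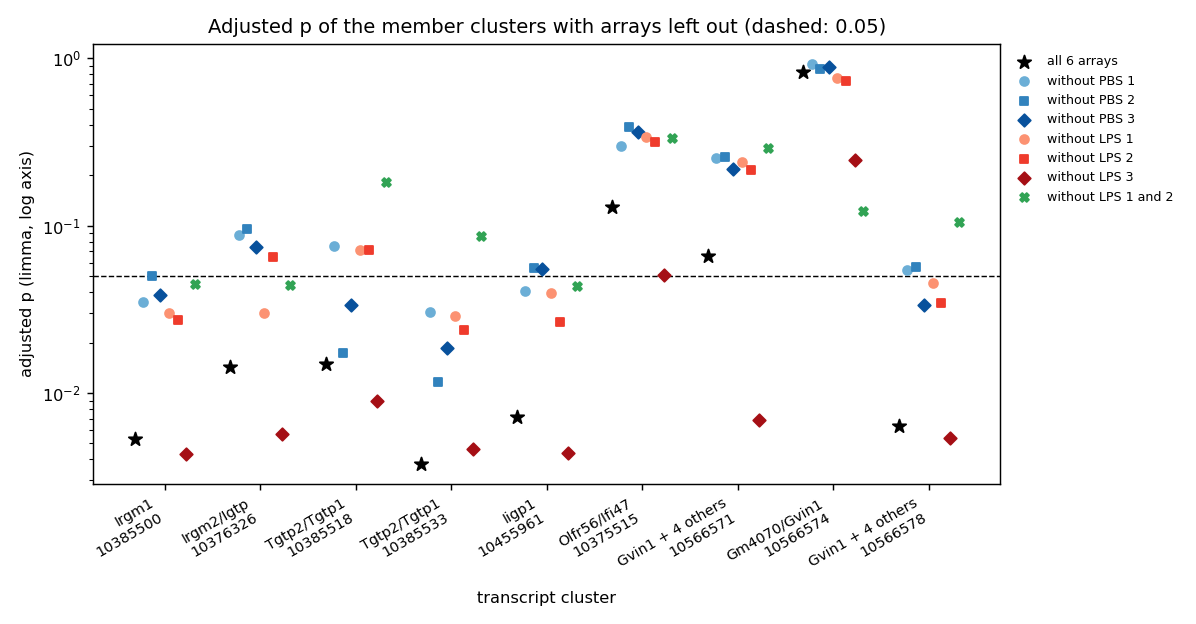
Limma adjusted p (log axis) of the 9 member clusters with all 6 arrays (star), with each array left out in turn and without LPS replicates 1 and 2 together; the dashed line is 0.05. Irgm1 and the first Tgtp cluster (10385533) stay under the line with each single array left out, with highest values of 0.0499 and 0.0304.

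The rise of one member relative to another was read within each array, which removes what all clusters of an array share. Of 36 pairs of member clusters, the log2 ratios of LPS and PBS arrays were apart in 27. Each pair was read in the direction of its larger rise, and the pairs reuse the same 9 clusters. The share of such pairs over all clusters was not taken, so this count has no background to be read against. With 3 arrays against 3 the exact two-sided permutation test cannot give a p below 0.1, and the smallest value adjusted over the 36 pairs was 0.133, so that no pair could pass. The ratio of the first Tgtp cluster to Irgm1 was higher after LPS by 0.70 (log2) with the arrays apart (exact permutation p = 0.1). The ratio of Iigp1 to Irgm1 was higher by 0.10 with overlapping arrays (exact permutation p = 0.3). The ratio of Irgm1 to the cluster of Irgm2 and Igtp was higher by 0.16 with the arrays apart (exact permutation p = 0.1).

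Among 14 further genes of the immunity-related and very large inducible GTPases, 9 clusters were available. Of these 4 were higher and 5 missed the threshold, with a median difference of 0.62 (log2), and none was lower. Gm4951, also named Ifgga2 and a close relative of Iigp1, had the largest of these differences. Its log2 expression was 5.69, 5.68 and 5.61 in controls, under the receptor median on every control array, and 7.57, 7.27 and 7.39 in LPS-treated mice. The difference was 1.75 (95% interval 1.52 to 1.97, limma adjusted p = 0.00152). The shared clusters of 9930111J21Rik1 and 9930111J21Rik2, neighbours of the Tgtp genes, were higher by 1.21 in one cluster (10385513, adjusted p = 0.00713) and differed by 0.96 in the other (10385526, adjusted p = 0.136). The very large GTPase genes Gm8995 and Gm1966 were higher by 0.79 (adjusted p = 0.0249) and 0.62 (adjusted p = 0.0371). Gm12250 differed by 0.44 with the groups apart (adjusted p = 0.0590). Gm12185, whose promoter resembles that of Tgtp2, read 5.57, 5.79 and 5.73 in controls and 5.97, 5.93 and 5.77 in LPS-treated mice. These values overlapped and lay close to the receptor median, and the difference was 0.19 (95% interval -0.04 to 0.42, adjusted p = 0.406). Irgq (-0.29, adjusted p = 0.487) and Irgc1 (0.17, adjusted p = 0.510), members of the family that are not known as interferon-inducible, did not pass the test. Gm4070 and Gm8979 were named only in the Gvin1 clusters, and F830016B08Rik, Gm5431 and Gm17757 were not analysed here.

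**Figure D3:**
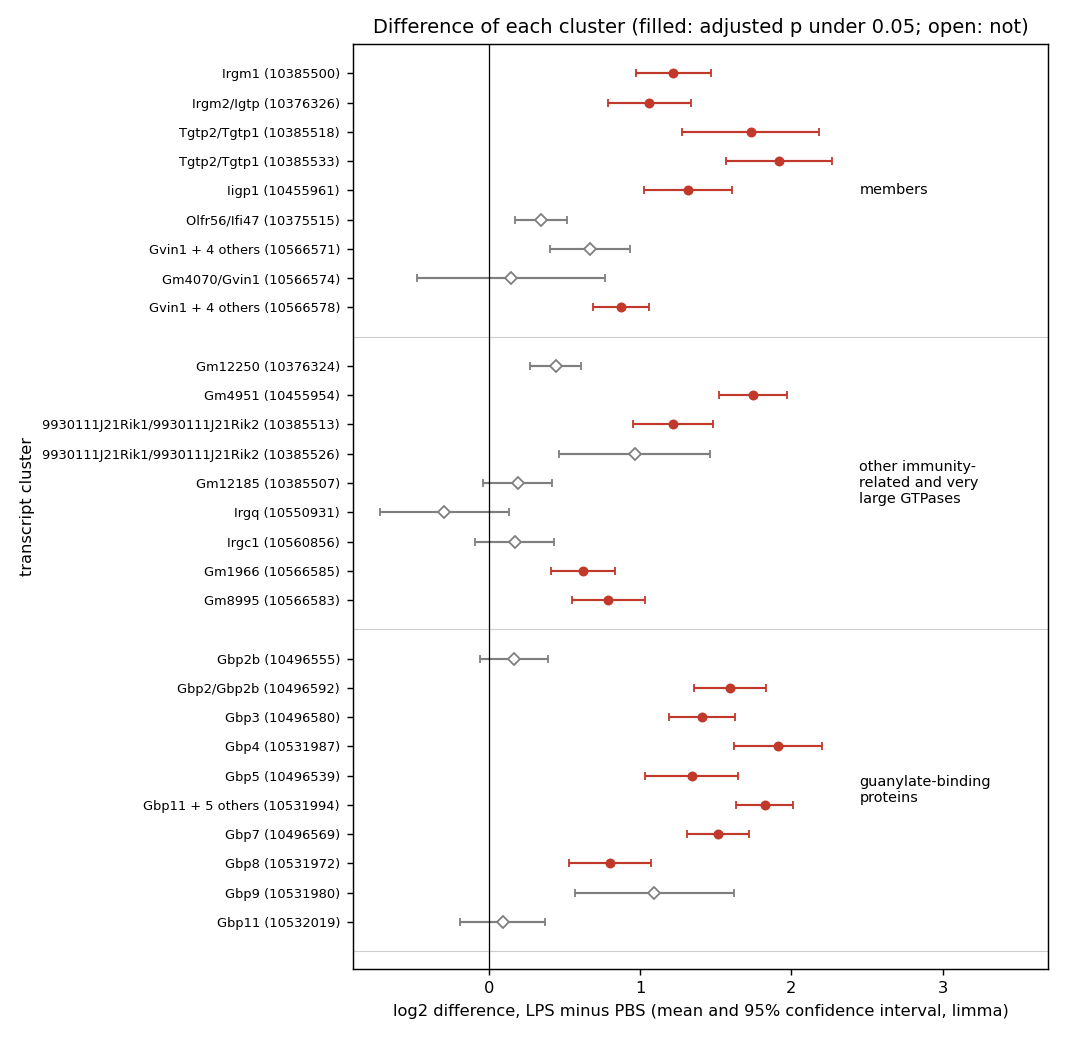
Log2 difference between LPS and PBS (horizontal axis, mean and 95% confidence interval from limma) of the clusters of the members, of the other immunity-related and very large GTPases and of the guanylate-binding proteins (vertical axis); filled red circles passed an adjusted p under 0.05 and open grey diamonds did not. The list medians are 1.06, 0.62 and 1.37.

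The guanylate-binding proteins, which act with the immunity-related GTPases on the same vacuoles, were the interferon-induced GTPases nearest to the members. Of their 10 clusters, 7 were higher and none was lower, with a median difference of 1.37. The smallest p was that of a cluster naming Gbp4, Gbp6, Gbp8, Gbp9, Gbp10 and Gbp11 together (1.82, limma adjusted p = 0.000878). Next were Gbp7 (1.52, adjusted p = 0.00153) and the cluster of Gbp2 and Gbp2b (1.59, adjusted p = 0.00199). The shared value cannot be divided between its 6 genes, and the cluster naming Gbp11 alone differed by 0.09 (adjusted p = 0.750). The antiviral dynamin-like GTPases Mx1 (0.58, adjusted p = 0.131) and Mx2 (0.55, adjusted p = 0.303) did not pass limma's adjusted threshold, and both were higher at an unadjusted p under 0.05.

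The interferon genes Ifng and Ifnb1 and most of the listed signalling chain did not pass the test at this time. Other interferon genes were not on the list. Of 14 clusters for ligands, receptors, kinases and transcription factors, 1 was higher and none was lower, with a median difference of 0.17. At an unadjusted p under 0.05, 4 of the 14 were higher by limma and none was lower. The cluster called was that of Stat2, a transcription factor that binds the interferon-stimulated response element as part of a complex (0.69, limma adjusted p = 0.0141). Its DNA-binding partner Irf9 differed by 0.92 (adjusted p = 0.0555), Irf1, which drives transcription of many immunity-related GTPases, by 0.38 (adjusted p = 0.166), and the receptor chain Ifnar2 by 0.32 (adjusted p = 0.276). Ifng, the ligand best known as inducer of the members, read 5.66, 5.48 and 5.68 in controls and 5.72, 5.74 and 5.74 in LPS-treated mice, near the receptor median (difference 0.13, adjusted p = 0.511). Ifnb1 was at or below the receptor median on all 6 arrays (difference -0.02, adjusted p = 0.959). The proteins that conjugate LC3 to membranes, on which the targeting of immunity-related GTPases depends, and the adaptors that bind LC3 were counted as a list too. Of their 14 clusters, none was higher or lower by limma, 1 was lower at an unadjusted p under 0.05 and the median difference was -0.10. That cluster was the cargo adaptor Sqstm1 (-0.22, adjusted p = 0.281). Over the whole array 2341 of 35556 clusters were lower at that unadjusted level, so 1 of 14 is near the share of all clusters.

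The members that responded lie in groups on 3 chromosomes, and the genes on each side of these groups were read as well. On chromosome 11 the order of the first group is Irgm1, Gm5431, Gm12185, Psme2b, 9930111J21Rik1, Tgtp1, 9930111J21Rik2, Tgtp2 and Ifi47, and that of the second group is Gm12250, Igtp and Irgm2. Gvin1 lies between Gm4070 and Gm1966 on chromosome 7. On chromosome 18, Iigp1 follows Gm4951, Gm4841 and F830016B08Rik. The 4 nearest genes with a cluster of their own on each side of these 4 groups were 32 genes. None of these was higher or lower by limma. Over the whole array 0.652% of clusters were higher and 22 of 35556 lower, so a count of none sets the neighbours apart from no other genes. At an unadjusted p under 0.05, 2 of the 32 passed, against 2733 higher and 2341 lower among all clusters. The differences of the 32 ran from -0.41 to 0.23 (log2), with a median of -0.02 and a smallest limma adjusted p of 0.291. Within the groups, Psme2b, a proteasome activator gene whose cluster it shares with Psme2, differed by 0.24 (adjusted p = 0.443). Gm4841, which RefSeq also names Ifgga3 and which was on no list, differed by 0.34 with the groups apart (adjusted p = 0.170).

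**Figure D4:**
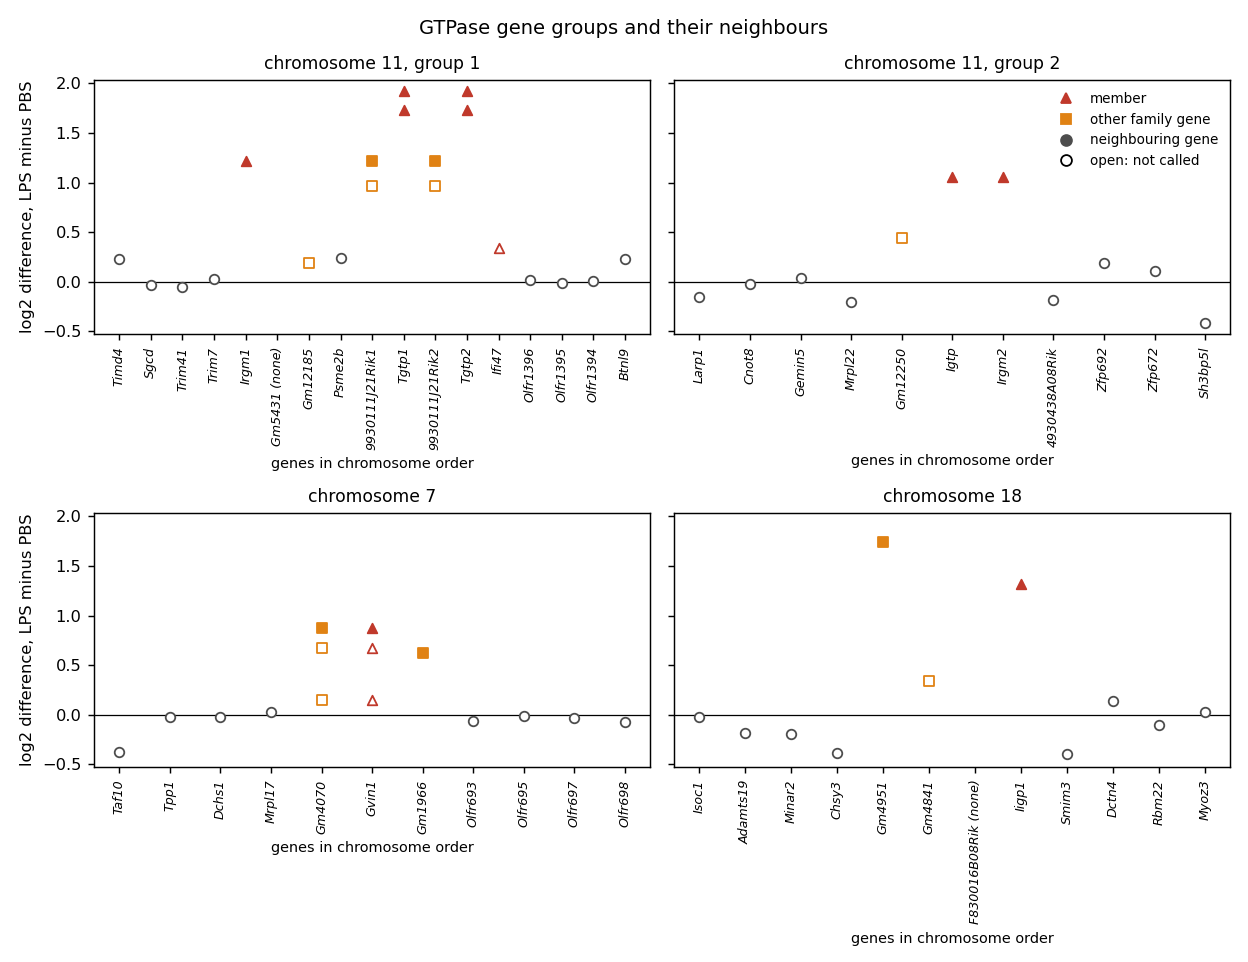
Log2 difference between LPS and PBS (vertical axis) of the genes in each GTPase group and of the 4 nearest genes on each side, in chromosome order (horizontal axis), with red triangles for members, orange squares for other family genes and grey circles for neighbours; filled symbols passed an adjusted p under 0.05, open symbols did not, and a gene with several clusters has several symbols. The neighbours lie between -0.41 and 0.24 and none passed.

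The genes whose change over the arrays was most like that of the members were found by distance. The 5 clusters that name only member genes (Irgm1, Irgm2 with Igtp, the Tgtp clusters and Iigp1) were averaged after subtracting the mean of the controls, which gave 0.09, -0.19 and 0.11 in controls and 1.38, 1.43 and 1.54 in LPS-treated mice. The profile was lowest in PBS replicate 2 and highest in LPS replicate 3. Among 21787 other clusters naming 1 gene, the smallest root mean square distances over the 6 arrays were those of Gbp7 (0.0663), Gbp3 (0.0845), Adgre1, which encodes the macrophage antigen F4/80 (0.103), Adgrl4, an adhesion receptor known from endothelium (0.109), and Chil1, a chitinase-like secreted protein (0.113), and the next was at 0.121. The measure reads the change from the control mean on each array, not the level, over 6 arrays and says nothing of shared control.

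Markers of endothelial cells were mostly higher after LPS, and the other lists changed in part or not at all. In whole brain RNA more cells of a type and more RNA per cell cannot be told apart. Of 9 clusters for 8 endothelial markers, 7 were higher (9 at an unadjusted p under 0.05) and none was lower. Their summed linear signal was 4301 to 4870.0 in controls and 7829 to 8552 in LPS-treated mice. A large part of this sum comes from the 2 clusters that Ly6c1 shares with the monocyte marker Ly6c2. Their mean log2 expression was 10.68 and 9.38 in controls and 11.56 and 10.25 after LPS. Cldn5, a tight junction protein of brain endothelium, was higher by 0.98 (limma adjusted p = 0.00456). Of 9 clusters for microglia and macrophages, 1 was higher (Itgam, 1.77, adjusted p = 0.00317) and 5 were higher at an unadjusted p under 0.05, with summed signals of 2562 to 2925 in controls and 3344 to 4096 after LPS. P2ry12 (0.01), Aif1 (0.09), Tmem119 (0.11) and Trem2 (0.15) of the same list did not pass, with limma adjusted p values of 0.699 or more. Of the 7 clusters for blood monocytes, 3 were higher (4 at an unadjusted p under 0.05), and 2 of the 3 are the Ly6c1 and Ly6c2 clusters that also count as endothelial. The remaining call was Fn1 (0.82, limma adjusted p = 0.0131), while Ccr2 (-0.29, adjusted p = 0.509) and Vcan (-0.04, adjusted p = 0.869) did not pass. For T and NK cells, sources of interferon gamma, 0 of 11 clusters passed by limma (2 were higher at an unadjusted p under 0.05), with summed signals of 567 to 614 and 606 to 647, and the markers Cd3d, Cd3g, Cd8b1, Cd2, Ncr1 and Klrb1c were at or below the receptor median on every array. B cell markers passed in 0 of 6 clusters (1 was higher at an unadjusted p under 0.05) and those of neutrophils in 1 of 9 (2 unadjusted). Of 6 erythrocyte clusters 2 were lower (5 at an unadjusted p under 0.05) and none was higher. No marker cluster of neurons, astrocytes, oligodendrocytes or choroid plexus passed by limma, and at an unadjusted p under 0.05 there were 2 higher for astrocytes and 2 lower for oligodendrocytes. The methods' t-test called none of these marker clusters higher. Over the same arrays, the summed signal of the 9 member clusters was 889.6 to 992.3 in controls and 1987 to 2257 after LPS. The part of these cell types in the member differences was not tested.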

How the data were processed

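RNA from whole brains of 3 mice given LPS and 3 given vehicle was hybridized to Affymetrix Mouse Gene 1.0 ST arrays (1 mouse on each). The authors deposited log2 values from robust multichip averaging (RMA), which subtracts background, normalizes between arrays and summarizes the probes of each cluster. The study describes a GC-adjusted RMA and RMA 16, without saying which of them gave the deposited values. Signal over background per probe was not used here. Replicates are different mice according to the labels, so p-values measure the spread between mice and their arrays.

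Gene symbols came from the array's annotation and were brought up to date through gene identifiers. Of 35556 clusters, 21789 named 1 gene, 1621 several and 12146 none. The two-sided test was that of limma 3.58.1 (lmFit, eBayes; R 4.3.3), adjusted over all clusters by Benjamini-Hochberg with a threshold of 0.05, and intervals are 95% confidence intervals. A list gene was represented by the brightest cluster that names it alone, or else by the clusters it shares. Ratios between member clusters were compared with exact permutation tests. Promoter sequences, neighbouring genes and chromosomes are those of RefSeq on GRCm38.p6. The limma fit was tested on simulated data with independent noise in each cluster. Such data hold no difference shared by a whole array, so the test does not cover the component that set LPS replicates 1 and 2 apart.

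The members and all lists were chosen with earlier results of these data known. The genes named were the 8 members, the other listed family genes, the 3 guanylate-binding proteins and up to 4 genes of the other lists with the smallest p, Ifng, Ifnb1, Tbp and the 5 clusters nearest to the members' mean profile, and 1 further gene of this rule is not reported here. Gm4841, Psme2b, Snap25 and the cell markers named were chosen after their values were seen. The alternatives tried were the methods' t-test, eBayes with a trend, centring arrays on their medians, quantile normalization, a filter on the 40% dimmest clusters, testing only clusters that name a gene, the replicate number as a block, leaving out each array in turn or LPS replicates 1 and 2 together, adjusted thresholds of 0.1 and 0.01, an offset of 32 on the linear scale and, for the lists, the mean of all clusters that name a gene alone.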

Additional observations from a re-analysis of the deposited data

How the results depend on the processing

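Each of the 9 member differences was recomputed under the alternatives, which gave 151 comparisons, of which 120 kept their direction and side of the threshold, 26 no longer passed, 4 newly passed and 1 turned, the cluster of Gm4070 and Gvin1 (-0.18 without LPS replicate 3, and -0.18 to 0.33 with each array left out). Of the 9 member clusters, 6 were called higher with all arrays, 3 to 7 with each array left out (3 without PBS replicate 1 or PBS replicate 2), 3 without LPS replicates 1 and 2, and 0 by the methods' t-test. The methods' t-test called 4 clusters higher and 1 lower over the whole array, 0 of the other immunity-related and very large GTPases, 1 guanylate-binding protein and 0 interferon signalling genes. The whole array had 232 clusters called higher and 22 lower. These became 74 to 2640 and 0 to 1152 with each array left out, and both maxima came without LPS replicate 3. They were 71 and 12 without LPS replicates 1 and 2, 356 and 64 at an adjusted p under 0.1, and 97 and 0 at an adjusted p under 0.01. Centring each array on its median gave 141 and 10, quantile normalization gave 13 lower, and testing only clusters that name a gene gave 82 lower. Of the other immunity-related and very large GTPases, 4 were called with all arrays, 1 to 6 with each array left out (6 without LPS replicate 3), 1 without LPS replicates 1 and 2, and 2 at an adjusted p under 0.01, after centring or after quantile normalization. For interferon signalling, the count of 1 became 2 when only clusters that name a gene were tested, without the 40% dimmest clusters, or at an adjusted p under 0.1. It was 0 at an adjusted p under 0.01 or without LPS replicates 1 and 2, and 0 to 2 with each array left out. Of the 2 Mx genes, 0 to 1 passed with each array left out. Before adjustment, 2733 clusters had a p under 0.05 with a positive difference and 2341 with a negative one, against 1718 and 4147 after centring and 2384 and 3166 after quantile normalization, which moved the median of all differences to -0.09 and -0.03, while 6 and 7 of the 9 member clusters were called higher. The cluster of Ifi47 and the second cluster of the 5 genes around Gvin1 (10566571) have no value without the 40% dimmest clusters, to which they belong. The causes of these changes were not tested. Signal over background per probe was not used here, so no limit from it can be given.

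The labels do not say whether the replicate numbers of the 2 groups pair the mice. Deviations from the group means correlated by 0.0867, -0.0538 and 0.0997 across clusters for numbers 1, 2 and 3. The highest correlation was that of PBS replicate 1 with LPS replicate 2 (0.146). With 3 mice in each group, such values cannot decide whether mice of the same number shared a batch. With the replicate number as a block, 2 of the 9 member clusters, 2 of the other immunity-related and very large GTPases, 0 interferon signalling genes and 76 clusters in all were called higher, and 4 clusters in all were called lower.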
